A study of Mus musculus with 6 samples.

Results

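The expression of 60 cell cycle and proliferation genes was described in lineage-labeled mouse alveolar type 2 cells (AT2s), the surfactant-producing cells that act as stem cells of the lung alveolus. The 60 members are those rows of the deposited count table, of 24421 in all, whose symbol is in a list of 14 genes of G1 and the restriction point, 9 genes of replication licensing, 7 genes of S phase and 30 genes of G2 and mitosis. Poly(A) RNA from FACS-sorted cells of 3 control mice (Sftpc-CreERT2/+; R26-tdTomato/+) and 3 caBmpr1a mice (Sftpc-CreERT2/+; R26-tdTomato/R26-caBmpr1a) was sequenced. All 6 mice thus carried the tamoxifen-dependent Cre driven by Sftpc and the tdTomato reporter, and the caBmpr1a mice also carried R26-caBmpr1a, from which Cre switches on a BMP type I receptor that signals without ligand. In each group 1 mouse was 16 weeks old (control library 2 and caBmpr1a library 1) and the other 2 were 12 weeks old. Sorting was on the tdTomato label, so a caBmpr1a library may also hold cells in which only the reporter recombined. The comparison asks which cell cycle transcripts differed when BMP signaling was held on in AT2s.

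Cells enter the cycle when D-type cyclins, bound to CDK4 or CDK6, phosphorylate RB1 and its relatives, which frees E2F factors to switch on genes for DNA replication. The MCM helicase is then loaded on origins with the help of CDC6 and CDT1, S phase enzymes supply nucleotides and copy the DNA, and a later wave of transcripts, from cyclin B to the kinesins, serves G2 and mitosis. AT2s divide rarely in the healthy adult lung. In bulk RNA, fewer cycling cells and less RNA per cycling cell cannot be told apart.

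The promoters of the late genes are known for 2 elements, the cell cycle homology region (CHR, TTTGAA) and the CCAAT box, whereas E2F sites mark many replication genes. In RefSeq promoters (GRCm38.p6, from 250 bases before to 50 bases after each start), 46 of the 60 members had an entry. TTTGAA and CCAAT were searched on both strands, and E2F sites as TTTCCCGC, TTTGGCGC or TTTCGCGC on both strands, where the E2F forms can overlap each other. Of the 23 G2 and mitosis genes with a promoter entry, 17 held both a CHR and a CCAAT box in this window, against 7.97% of the promoters of 27025 genes. For the licensing genes, 6 of 7 held an E2F form, against 2.12% of all promoters. No S phase promoter of 7 held a CHR, against 20.2% of all promoters, and 1 held an E2F form. Of 9 G1 promoters, 4 held an E2F form. The CCAAT box was also in 5 of 7 licensing promoters, against 41.1% of all promoters.

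The 250 bases before the start are given for the mitotic genes Top2a, Mki67, Cdk1, Cdc20 and Bub1. They are also given for Mcm6, one of the most abundant licensing transcripts, to show both layouts. Capitals mark the CHR, CCAAT and E2F letters, and all 6 genes lie on the minus strand:
Top2a: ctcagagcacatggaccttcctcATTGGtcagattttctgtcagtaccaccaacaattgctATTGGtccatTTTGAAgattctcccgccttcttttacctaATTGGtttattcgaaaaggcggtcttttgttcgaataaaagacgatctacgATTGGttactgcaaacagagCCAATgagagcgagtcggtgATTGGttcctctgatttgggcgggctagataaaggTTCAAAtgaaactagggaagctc
Mki67: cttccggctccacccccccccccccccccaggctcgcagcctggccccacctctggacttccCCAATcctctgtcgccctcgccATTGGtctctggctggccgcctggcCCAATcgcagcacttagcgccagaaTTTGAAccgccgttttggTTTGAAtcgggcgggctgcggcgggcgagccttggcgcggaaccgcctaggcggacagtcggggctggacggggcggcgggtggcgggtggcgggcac
Cdk1: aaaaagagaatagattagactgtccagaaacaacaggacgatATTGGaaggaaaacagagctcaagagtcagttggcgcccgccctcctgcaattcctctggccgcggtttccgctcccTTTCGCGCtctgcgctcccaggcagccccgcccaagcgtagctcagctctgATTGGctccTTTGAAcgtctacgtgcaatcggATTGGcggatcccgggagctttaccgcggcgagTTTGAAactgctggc
Cdc20: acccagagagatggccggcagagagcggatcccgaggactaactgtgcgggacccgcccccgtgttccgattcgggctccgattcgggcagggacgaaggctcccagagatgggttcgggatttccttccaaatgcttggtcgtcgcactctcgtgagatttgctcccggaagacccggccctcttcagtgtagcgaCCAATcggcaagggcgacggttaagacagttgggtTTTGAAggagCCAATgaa
Bub1: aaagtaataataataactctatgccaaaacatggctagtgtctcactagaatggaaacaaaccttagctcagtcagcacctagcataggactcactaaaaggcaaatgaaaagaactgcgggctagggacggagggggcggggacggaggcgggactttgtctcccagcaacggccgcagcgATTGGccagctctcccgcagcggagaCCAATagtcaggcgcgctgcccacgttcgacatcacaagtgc
Mcm6: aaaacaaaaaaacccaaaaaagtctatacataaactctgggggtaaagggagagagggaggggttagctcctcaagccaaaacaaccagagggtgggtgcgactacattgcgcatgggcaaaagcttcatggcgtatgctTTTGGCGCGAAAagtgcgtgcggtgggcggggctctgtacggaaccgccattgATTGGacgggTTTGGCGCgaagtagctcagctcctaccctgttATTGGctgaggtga
The windows are chr11:99024190-99024439 for Top2a, chr7:135716380-135716629 for Mki67 and chr10:69352913-69353162 for Cdk1. They are chr4:118437344-118437593 for Cdc20, chr2:127831860-127832109 for Bub1 and chr1:128359706-128359955 for Mcm6. The CHR nearest the start lay 23 bases before it in Top2a, 98 in Mki67, 15 in Cdk1 and 18 in Cdc20. The Bub1 window held 2 CCAAT boxes and no TTTGAA. Mcm6 held E2F forms 110, 106 and 47 bases before its start. A match is a description of letters, and binding was not measured.

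Libraries held between 21554249 and 28440227 counts, and 16723 genes passed the filter on low counts. Over these genes, 40 were higher (0.239%) and 2 lower (0.0120%) in caBmpr1a cells at an adjusted p under 0.05 (edgeR, Benjamini-Hochberg over all tested genes). Bmpr1a itself was at 120 ± 12.9 CPM (counts scaled to a library of 1000000) in control and 119 ± 19.1 CPM in caBmpr1a cells (SD, n = 3), whereas 8 of 8 BMP target genes had higher mean levels in caBmpr1a cells and 5 of them passed the test. All 10 AT2 markers were present, with summed levels of 124469 to 138937 CPM in control and 101572 to 116114 CPM in caBmpr1a libraries. Reads on Y-linked genes were found in control library 1 (176 CPM) and caBmpr1a library 3 (146 CPM) and were at 0 in the other 4.

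All 60 members passed the filter, and 0 of them passed an adjusted p of 0.05 by edgeR's quasi-likelihood test. At an unadjusted p under 0.05, 1 member was higher (background over all tested genes 4.62%) and 4 were lower (background 5.05%). DESeq2 called 3 members, Ccnd3 higher (1.45% of all genes with an adjusted p) and Bub1 and Stmn1 lower (0.644%), and limma-voom called 0. A fit with Y-linked reads as a covariate called Bub1 and Stmn1 lower, when 1.27% of all genes were called lower and 1.27% higher. The 4 libraries without Y-linked reads called Bub1 alone among members, when 0.245% of all genes were called lower and 0.447% higher. The 95% confidence interval of the log2 fold change lay within a 2-fold change in both directions for 29 of the 60 members, and for the others a 2-fold difference in 1 direction or both lay inside the interval.

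By phase, the median log2 fold change (caBmpr1a minus control) was -0.03 for G1 and the restriction point, -0.13 for licensing, -0.15 for S phase and -0.36 for G2 and mitosis, against -0.0096 over all tested genes. Fold changes were below 0 for 8 of 14, 8 of 9, 6 of 7 and 26 of 30 members in that order, and for 51.2% of all tested genes. The G2 and mitosis median was -0.31 without Bub1 and Stmn1, whose groups alone among the 30 did not overlap. It was -0.14 without control library 3, -0.18 without caBmpr1a library 1 and -0.63 without control library 2, so single libraries set its size. The smaller medians also moved, and licensing was at -0.05 without control library 3, -0.065 without caBmpr1a library 1 and -0.25 without control library 2, and S phase at -0.035 without control library 3, -0.064 without caBmpr1a library 3 and -0.23 without control library 1. With scaling by library size only, which moved the median of all genes to 0.12, the licensing median was 0.0026, the S phase median -0.019, the G1 median 0.10 and the G2 and mitosis median -0.22.

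**Figure D1:**
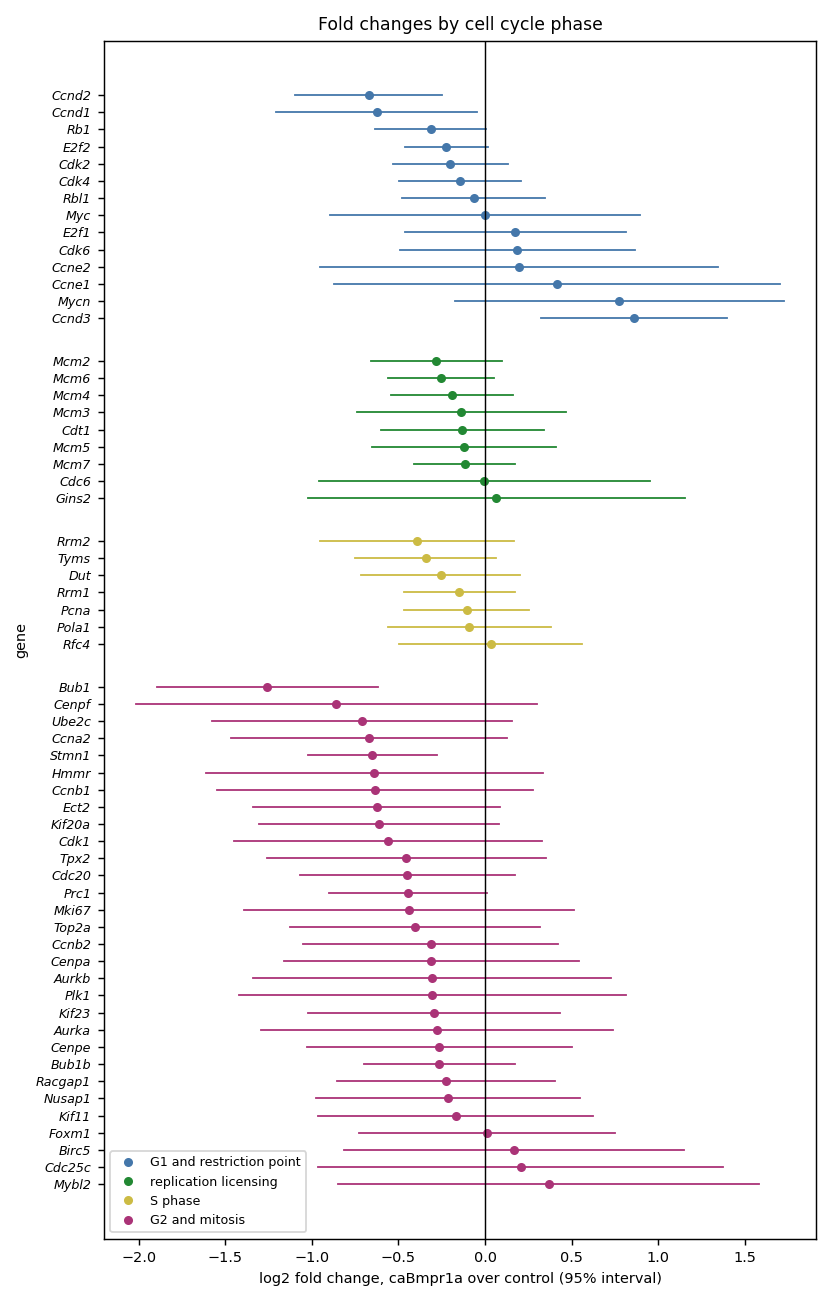
Log2 fold change of each of the 60 genes (x axis, caBmpr1a over control; points are edgeR estimates and lines their 95% confidence intervals), sorted within each cell cycle phase (colors). The intervals of 5 genes, Ccnd1, Ccnd2, Ccnd3, Bub1 and Stmn1, exclude 0, and 26 of the 30 G2 and mitosis estimates lie below 0.

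The D-type cyclins, which carry mitogen signals into the cycle, had the widest range of the G1 genes and did not move together. Ccnd3 was at 146, 155 and 154 CPM in control libraries 1 to 3 and at 194, 242 and 390 CPM in caBmpr1a libraries 1 to 3. Every caBmpr1a value was above every control value, while the caBmpr1a values differed among themselves by more than the control values did. Its log2 fold change was 0.86 ± 0.24 (SE, n = 3) with an edgeR adjusted p of 0.293, which ranged from 0.0192 (DESeq2) to 0.70 over 19 alternatives. Ccnd2 was at 46.9, 76.3 and 50.1 CPM in control and at 36.0, 34.5 and 38.2 CPM in caBmpr1a libraries, again without overlap but with lower values in caBmpr1a cells (log2 fold change -0.67 ± 0.19 SE, edgeR adjusted p = 0.306). Ccnd1 was at 246, 371 and 296 CPM in control and at 264, 195 and 133 CPM in caBmpr1a libraries. Its groups overlapped, since caBmpr1a library 1 lay above control library 1 (log2 fold change -0.63 ± 0.25 SE, edgeR adjusted p = 0.485).

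Per kilobase of transcript, control cells had 80.2 CPM per kb of Ccnd1, 67.0 of Ccnd3 and 10.01 of Ccnd2, and caBmpr1a cells had 52.0, 122 and 6.28 CPM per kb. The size of the gap between Ccnd1 and Ccnd3 in control cells rests on the length used. Over bases that no other gene shares, they were at 80.7 and 79.7 CPM per kb. In caBmpr1a cells Ccnd3 was above Ccnd1 on both lengths, at 145 against 52.3 CPM per kb over unshared bases. The caBmpr1a library with the highest Ccnd3 (library 3) also had the lowest Ccnd1 and the highest level of the BMP target Id1, at 411 CPM against 124 and 177 CPM in caBmpr1a libraries 1 and 2. Of the other BMP targets, Id2, Id3, Smad7, Atoh8 and Bambi were also highest in caBmpr1a library 3, whereas Smad6 and Smad9 were highest in caBmpr1a library 2. Library 3 was also the only caBmpr1a library with Y-linked reads. Without it the log2 fold change was 0.57 for Ccnd3 and -0.37 for Ccnd1. In the 4 libraries without Y-linked reads these were 0.54 and -0.51. Whether the cyclin levels follow the strength of BMP signaling was not tested. Ccnd3 (mm10, chr17:47505051-47599688, plus strand) shares 358 of its 2260 exon bases with Bysl, a ribosome biogenesis gene whose own log2 fold change was 0.16, and reads on shared bases were left out by the counting.

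The kinase partners of the D-type cyclins did not differ beyond their spread. Cdk4 was at 92.8, 67.3 and 79.3 CPM in control and at 74.0, 80.9 and 61.7 CPM in caBmpr1a libraries (log2 fold change -0.14, 95% interval -0.50 to 0.21). Cdk6 was far lower per kilobase, at 1.54 CPM per kb against 56.5 for Cdk4, with overlapping groups (3.56 ± 0.957 CPM in control, 4.05 ± 0.375 CPM in caBmpr1a, SD, n = 3). Rb1, the restriction point brake, was at 24.2, 30.4 and 29.9 CPM in control and at 23.4, 24.4 and 20.2 CPM in caBmpr1a libraries (log2 fold change -0.32 ± 0.14 SE, edgeR adjusted p = 0.527), with 1 caBmpr1a value just above the lowest control value. E2f2, an activating E2F that was picked out after its values were seen because its groups do not overlap, was at 69.2 to 72.9 CPM in control and 56.9 to 65.2 CPM in caBmpr1a libraries (log2 fold change -0.22 ± 0.10 SE, edgeR adjusted p = 0.541).

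The MYC factors drive growth and cell cycle entry. Myc was at 10.1, 9.43 and 11.5 CPM in control and at 8.02, 5.24 and 17.7 CPM in caBmpr1a libraries. Its caBmpr1a values lay on both sides of the control values, and the fitted log2 fold change was -0.0013 (95% interval -0.90 to 0.90). Mycn was a rare transcript, at 1.57, 1.20 and 1.14 CPM in control and 1.83, 1.86 and 2.99 CPM in caBmpr1a libraries. All 3 caBmpr1a values of Mycn were above the control values, with a log2 fold change of 0.78 ± 0.42 (SE, edgeR adjusted p = 0.598). The other G1 members, the E-type cyclins, Cdk2, E2f1 and Rbl1, overlapped between groups. Over all phases, groups did not overlap for 6 of 60 members, Ccnd3 and Mycn with higher and Ccnd2, E2f2, Bub1 and Stmn1 with lower values in caBmpr1a cells, against 17.1% of all tested genes in either direction.

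**Figure D2:**
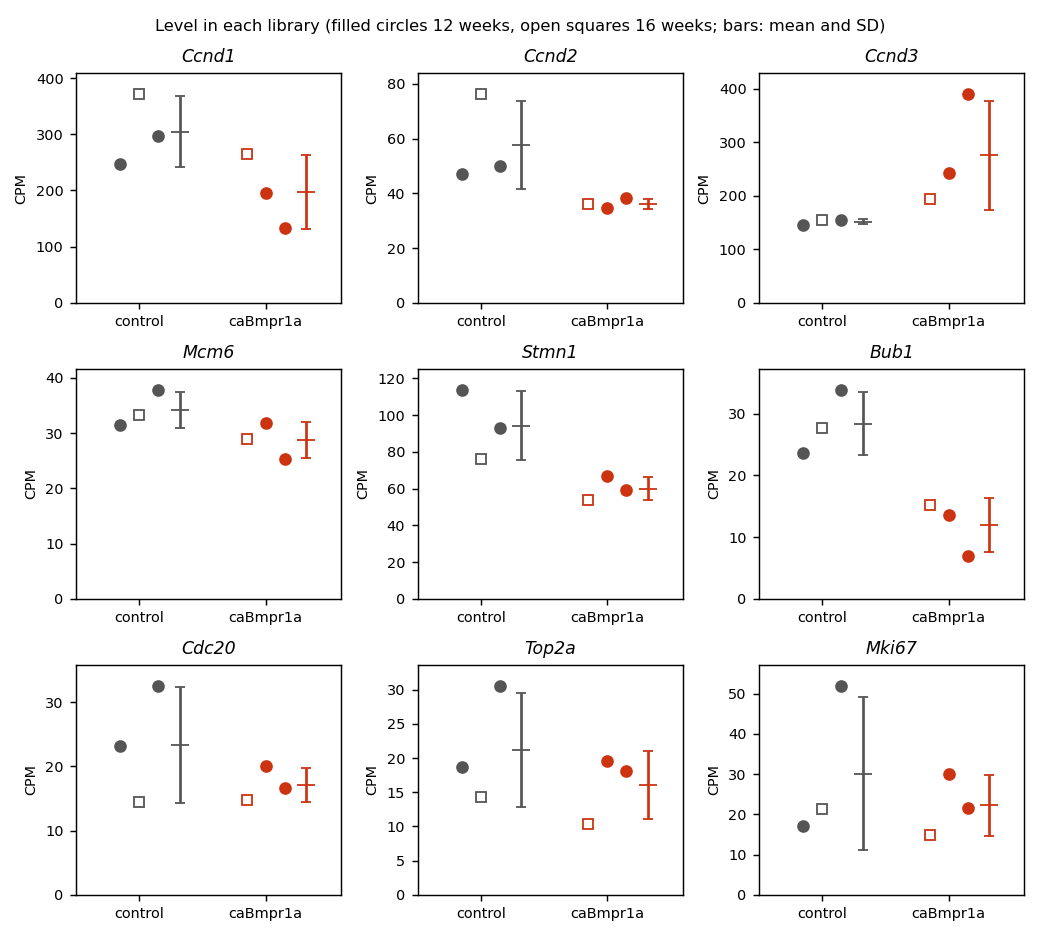
Level of 9 genes in each library (y axis, CPM from 0; x axis, group), with 12-week-old mice as filled circles, 16-week-old mice as open squares and the mean with its SD beside each group (n = 3). Ccnd3 was higher and Ccnd2, Stmn1 and Bub1 lower in all caBmpr1a libraries than in all controls, whereas Mcm6, Cdc20, Top2a, Mki67 and Ccnd1 overlapped.

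The licensing genes showed small differences, from -0.28 to 0.07 on the log2 scale, and 0 of 9 passed an unadjusted p of 0.05 by edgeR. Mcm7 and Mcm6, subunits of the replicative helicase, were the most abundant of them per kilobase at 12.3 and 10.8 CPM per kb. Mcm6 was at 31.5, 33.3 and 37.8 CPM in control and at 28.9, 31.9 and 25.4 CPM in caBmpr1a libraries, so that caBmpr1a library 2 lay above control library 1 (log2 fold change -0.25 ± 0.13 SE, edgeR adjusted p = 0.594). Mcm2 was at 17.3, 22.3 and 23.8 CPM in control and at 16.1, 20.1 and 16.0 CPM in caBmpr1a libraries (log2 fold change -0.28). Mcm4 was at 21.9 ± 3.92 CPM in control and 19.2 ± 1.12 CPM in caBmpr1a cells (SD, n = 3), and Mcm7 at 30.7 ± 3.87 and 28.3 ± 1.12 CPM. For Mcm7 the 95% interval of the log2 fold change, -0.41 to 0.18, leaves out a 2-fold difference in either direction.

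The S phase genes, which supply nucleotides and copy the DNA, ranged from -0.39 to 0.03 on the log2 scale, with 0 of 7 past an unadjusted p of 0.05 by edgeR. Pcna, the sliding clamp of the polymerases, had the highest level per kilobase at 58.7 CPM per kb. It was at 73.2, 70.6 and 86.1 CPM in control and at 65.8, 60.9 and 87.0 CPM in caBmpr1a libraries, and the highest value of all was in a caBmpr1a library. Rrm2, the subunit of ribonucleotide reductase that is made for S phase, was at 11.1, 7.07 and 10.1 CPM in control and at 5.55, 7.14 and 8.82 CPM in caBmpr1a libraries (log2 fold change -0.39 ± 0.24 SE, edgeR adjusted p = 0.646). Rrm1, its partner subunit, differed less, at 28.3 ± 3.83 CPM in control and 25.5 ± 2.35 CPM in caBmpr1a cells (SD, n = 3). Tyms, which makes thymidylate, was at 12.7, 10.5 and 13.3 CPM in control and at 8.16, 9.50 and 11.1 CPM in caBmpr1a libraries (log2 fold change -0.34). Dut, which clears dUTP, had a log2 fold change of -0.26 with overlapping groups.

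The G2 and mitosis genes were mostly rare transcripts, as 21 of the 30 averaged under 10 CPM in both groups, and the lowest count of any member in any library was 22. Mki67, the proliferation marker, was at 17.2, 21.2 and 51.9 CPM in control and at 14.9, 30.03 and 21.6 CPM in caBmpr1a libraries. Control library 3 stood far above the other 5, and without it the log2 fold change of -0.44 (95% interval -1.39 to 0.51) turned to 0.21. Top2a, which untangles sister chromatids, was at 18.7, 14.4 and 30.5 CPM in control and at 10.4, 19.6 and 18.2 CPM in caBmpr1a libraries (log2 fold change -0.40 ± 0.32 SE, edgeR adjusted p = 0.707). Its highest value was again in control library 3 and its lowest in caBmpr1a library 1. Cdk1, the kinase that drives entry into mitosis and that is shown with its promoter though outside the rule for named genes, was at 6.23, 3.34 and 9.02 CPM in control and at 2.93, 4.34 and 5.31 CPM in caBmpr1a libraries (log2 fold change -0.56 ± 0.39 SE, edgeR adjusted p = 0.669), with the same highest and lowest libraries.

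Cdc20, the activator of the anaphase-promoting complex, was at 23.1, 14.5 and 32.5 CPM in control and at 14.8, 20.02 and 16.6 CPM in caBmpr1a libraries. The control values spanned the whole caBmpr1a range (log2 fold change -0.45 ± 0.27 SE, edgeR adjusted p = 0.633). Cdc20 (chr4:118432901-118437343, minus strand) shares exon bases with Elovl1, a fatty acid elongase counted at 1767 ± 226 CPM in control cells (SD, n = 3), which had a log2 fold change of 0.02. Prc1, which bundles microtubules at the spindle midzone, was at 21.9, 18.0 and 31.2 CPM in control and at 17.0, 17.2 and 18.1 CPM in caBmpr1a libraries (log2 fold change -0.44 ± 0.20 SE, edgeR adjusted p = 0.528). Only the highest caBmpr1a value of Prc1 reached the lowest control value. Kif20a, a kinesin of cytokinesis, was at 9.15, 5.14 and 11.7 CPM in control and at 4.86, 5.55 and 6.57 CPM in caBmpr1a libraries (log2 fold change -0.61 ± 0.30 SE, edgeR adjusted p = 0.566), and shares exon bases with Brd8 and Cdc23. Without control library 3 the log2 fold changes were -0.047 for Top2a, -0.14 for Cdc20, -0.19 for Prc1 and -0.34 for Kif20a, and without control library 2 they were -0.63, -0.71, -0.61 and -0.88. The estimates above 0 in this group were those of Mybl2 (0.37), Cdc25c (0.21), Birc5 (0.17) and Foxm1 (0.01), which were looked up after the values were seen.

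**Figure D3:**
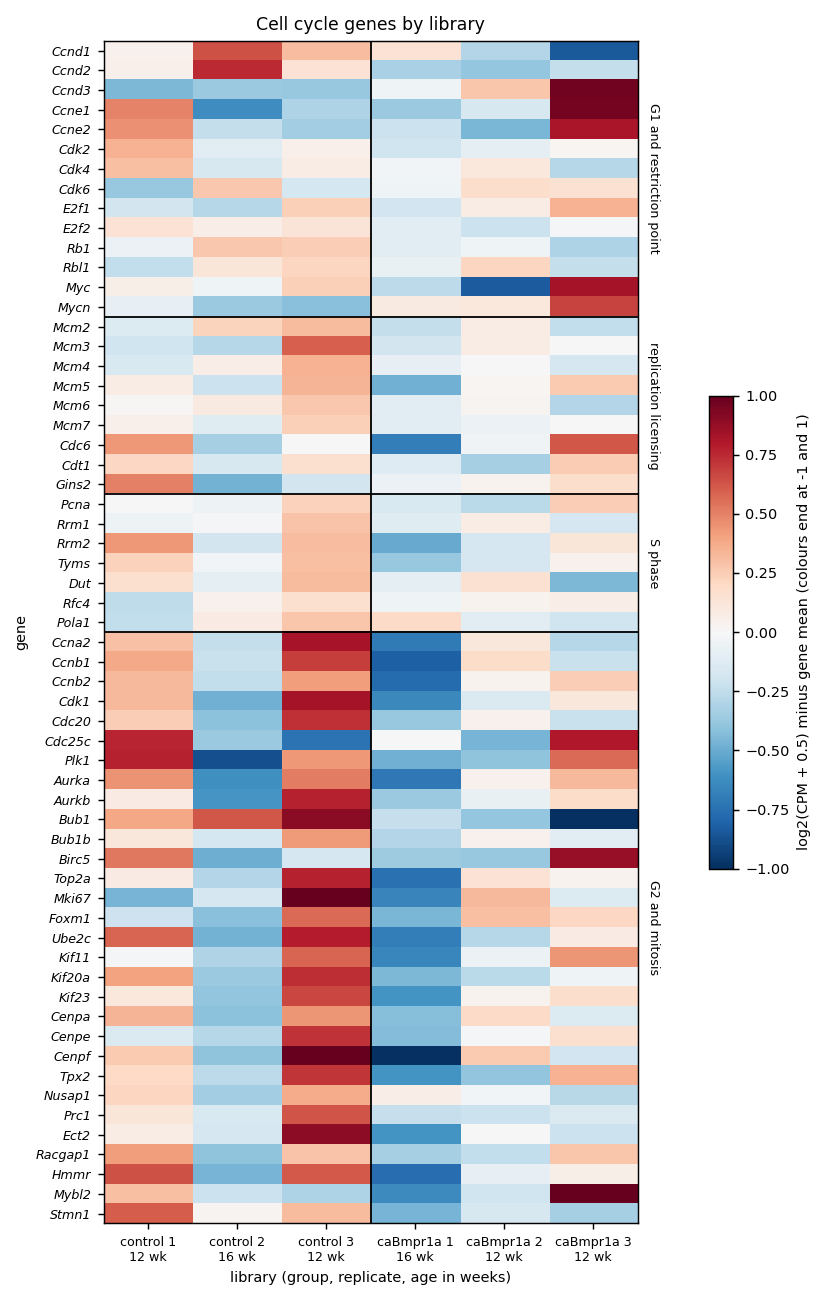
Level of the 60 genes in each library as log2(CPM + 0.5) minus the mean of the gene (colors, ending at -1 and 1), with rows by phase and columns by library with the age of the mouse. Among the 30 G2 and mitosis genes, control library 3 was highest of 6 for 23 and caBmpr1a library 1 was lowest of 6 for 22.

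The mitotic genes shared an order of libraries that cut across the groups. Control library 3 had the highest value of the 6 for 23 of the 30 genes, against 18.5% of all tested genes, and caBmpr1a library 1 had the lowest for 22 of the 30, against 9.13%. The 16-week library was the lowest of its own group in both groups for 24 of the 30 genes, against 9.40% of all tested genes. It was so for 5 of 9 licensing, 2 of 7 S phase and 3 of 14 G1 members. With 1 mouse of that age in each group, age and mouse cannot be told apart.

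Summed over the 30 genes, the level was 200, 133 and 207 CPM per kb in control libraries 1 to 3 and 104, 134 and 134 CPM per kb in caBmpr1a libraries 1 to 3. Within the 12-week-old mice both caBmpr1a sums lay under both control sums, and in the 16-week pair the caBmpr1a sum was also the lower. Across ages the groups overlapped, because control library 2 lay just under caBmpr1a libraries 2 and 3. Stmn1 alone made up between 41.7% and 54.1% of the sum in each library, and without it and Bub1 the sums were 87.7, 54.5 and 111 CPM per kb in control and 49.4, 68.3 and 76.6 CPM per kb in caBmpr1a libraries. The S phase sums, from 79.2 to 97.4 in control and 72.3 to 91.2 in caBmpr1a libraries, and the G1 sums, from 257 to 275 and 258 to 311 CPM per kb, overlapped. The licensing sums ran from 46.6 to 58.5 in control and from 42.8 to 47.3 CPM per kb in caBmpr1a libraries. They overlapped because control library 2 lay just under caBmpr1a libraries 2 and 3.

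In the 4 libraries of 12-week-old mice, the G2 and mitosis median log2 fold change was -0.48, and 0 members passed an adjusted p of 0.05 by edgeR. In these libraries the groups did not overlap for 24 of 60 members that were lower in caBmpr1a cells, against 20.2% of all tested genes, and for 3 that were higher, against 15.6%. With age as a covariate in the fit to all 6 libraries, the G2 and mitosis median was -0.38. Markers of other cells also differed between libraries: summed leukocyte markers (14 genes, none at 0) ran from 82.9 to 104 CPM in control and from 76.0 to 210 CPM in caBmpr1a libraries, with the highest value in caBmpr1a library 1. Endothelial markers (10 genes, none at 0) ran from 274 to 572 and from 495 to 814 CPM, and mesenchymal markers (10 genes, none at 0) from 197 to 247 and from 288 to 350 CPM. Airway markers (8 genes, 1 at 0) ran from 722 to 909 and from 838 to 1219 CPM. Mesothelial markers (4 genes, none at 0) ran from 10.5 to 23.1 and from 20.1 to 54.9 CPM, with the highest value in caBmpr1a library 3. Erythroid markers (6 genes, 4 at 0) ran from 0.457 to 6.90 and from 0.621 to 2.29 CPM. Their part in the levels of the cell cycle genes was not tested.

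**Figure D4:**
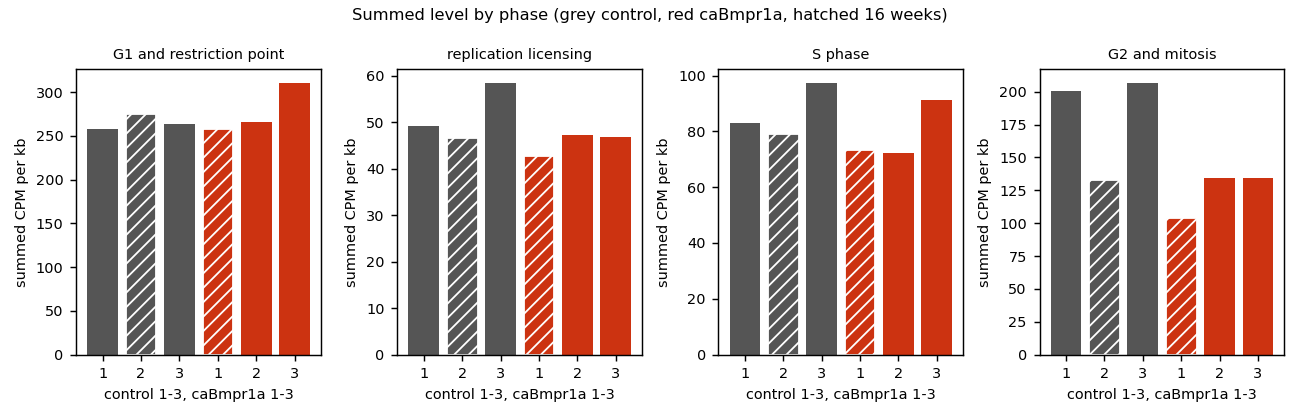
Summed level of each phase group (y axis, CPM per kb from 0) in each library (x axis; gray control, red caBmpr1a, hatched 16-week-old mice). For G2 and mitosis, the 16-week library had the lowest sum of its group in both groups, at 133 and 104 CPM per kb.

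Stmn1 and Bub1 had the lowest p-values of the G2 and mitosis genes. Stmn1, a microtubule-destabilizing protein that many non-dividing cells also make, was the most abundant G2 and mitosis transcript per kilobase at 72.7 CPM per kb, followed by Cdc20 at 11.4. It was at 114, 76.0 and 92.9 CPM in control and at 54.0, 66.7 and 59.2 CPM in caBmpr1a libraries. The groups did not overlap, with a log2 fold change of -0.65 ± 0.16 (SE, n = 3) and an edgeR adjusted p of 0.255, which ran from 0.0436 (DESeq2) to 0.62 over 19 alternatives.

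Bub1, a kinase of the spindle checkpoint, had the lowest p of the 60 members. It was at 23.6, 27.8 and 33.8 CPM in control and at 15.2, 13.6 and 6.998 CPM in caBmpr1a libraries. All caBmpr1a values were below all control values, with a log2 fold change of -1.26 ± 0.28 (SE, n = 3) and an edgeR adjusted p of 0.186, which ran from 0.00517 (DESeq2) to 0.62 over 19 alternatives. Its lowest value was in caBmpr1a library 3, which was the lowest of the 6 for 1 of the 30 G2 and mitosis genes, Bub1 itself. Bub1b, its paralog in the same checkpoint, was at 14.4, 11.7 and 18.0 CPM in control and 10.8, 13.7 and 12.3 CPM in caBmpr1a libraries. Bub1 lies at chr2:127800200-127831859 on the minus strand, and Acoxl, an acyl-CoA oxidase-like gene looked up after the values were seen, at chr2:127854628-128123892 on the plus strand, 22768 bases away in the table. Acoxl was at 589, 689 and 669 CPM in control and at 462, 327 and 177 CPM in caBmpr1a libraries (log2 fold change -1.01 ± 0.30 SE, edgeR adjusted p = 0.347). Bub1 was at 4.01%, 4.03% and 5.06% of the Acoxl level in control and at 3.30%, 4.15% and 3.95% in caBmpr1a libraries. Both genes were lowest in caBmpr1a library 3, and whether their reads or their regulation are linked was not tested.

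Other genes of the pathway, from lists that exclude the members, also held no gene that passed an adjusted p of 0.05 by edgeR. Of 45 other mitotic genes, 0 passed an adjusted p of 0.05 by edgeR. At an unadjusted p under 0.05, 1 was higher (4.62% of all tested genes) and 2 were lower (5.05%). The median log2 fold change was -0.32, against -0.0096 over all tested genes, and the median log2 ratio in the 16-week pair was -0.06. Control library 3 was highest of 6 for 27 of the 45 (18.5% of all tested genes) and caBmpr1a library 1 lowest for 19 (9.13%). The 16-week library was the lowest of its own group in both groups for 27 (9.40%). Summed levels overlapped, at 157 ± 23.2 CPM per kb in control and 149 ± 18.1 CPM per kb in caBmpr1a libraries (SD, n = 3). Cdc25b, a phosphatase that activates cyclin-dependent kinases, was at 67.0, 48.4 and 50.8 CPM in control and at 84.6, 103 and 119 CPM in caBmpr1a libraries. Its groups did not overlap, and its log2 fold change of 0.88 ± 0.17 (SE, n = 3) had an edgeR adjusted p of 0.129, which ran from 0.000472 (DESeq2) to 0.49 over 19 alternatives. Nek2, a centrosome kinase, was at 6.95, 4.24 and 9.63 CPM in control and at 3.16, 3.88 and 4.33 CPM in caBmpr1a libraries (log2 fold change -0.87 ± 0.32 SE, edgeR adjusted p = 0.446).

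Of 35 other replication genes, 0 passed by edgeR, with a median of -0.09. At an unadjusted p under 0.05, 1 was higher (4.62% of all tested genes) and 1 was lower (5.05%). Rpa1, which coats single-stranded DNA, was at 42.1 ± 0.477 CPM in control and 53.6 ± 3.92 CPM in caBmpr1a cells (SD, n = 3; log2 fold change 0.35, edgeR adjusted p = 0.352). Orc6, a subunit of the origin recognition complex, was at 11.1 ± 0.891 and 8.02 ± 0.58 CPM (log2 fold change -0.46, edgeR adjusted p = 0.415). Neither gene had overlapping groups. Of 17 other E2F, pocket protein and MuvB genes, 0 passed by edgeR, with a median of -0.17. At an unadjusted p under 0.05, 2 were lower (5.05% of all tested genes). These were Lin52, a MuvB subunit (14.0 ± 2.07 and 10.3 ± 1.42 CPM, log2 fold change -0.45), and E2f5, a repressive E2F (16.2 ± 1.33 and 12.9 ± 0.991 CPM, log2 fold change -0.32).

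Among the 7 CDK inhibitors, which hold cells out of the cycle, 6 passed the filter and 0 passed an adjusted p of 0.05 by edgeR. At an unadjusted p under 0.05, 1 was higher (4.62% of all tested genes) and 0 were lower (5.05%). Cdkn1c, which encodes p57, was at 11.4, 10.2 and 11.04 CPM in control and at 14.1, 19.0 and 26.6 CPM in caBmpr1a libraries. All caBmpr1a values were above all control values (log2 fold change 0.88 ± 0.22 SE, edgeR adjusted p = 0.266, from 0.0315 with DESeq2 to 0.71 over 19 alternatives). Cdkn2c, which encodes p18 and binds CDK4 and CDK6, was at 13.4, 9.17 and 12.6 CPM in control and at 8.39, 10.5 and 8.01 CPM in caBmpr1a libraries (log2 fold change -0.39, edgeR adjusted p = 0.584). The highest level of Cdkn1c, like that of Ccnd3, was in caBmpr1a library 3, the only caBmpr1a library with Y-linked reads. Without that library the log2 fold change of Cdkn1c was 0.65, and in the 4 libraries without Y-linked reads it was 0.68. A link between Cdkn1c and Ccnd3 was not tested.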

How the data were processed

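RNA-seq was from FACS-sorted, lineage-labeled AT2s of 3 control and 3 caBmpr1a mice. The authors trimmed poly(A/T) tails and adaptors, mapped reads to mm10 with Hisat2, removed duplicates with SAMtools and deposited counts per gene made with featureCounts 1.5.3, with no normalization and no use of strand, leaving out reads that overlap more than 1 gene. The table header holds no option for read pairs, and between 56.9% and 60.8% of the counts from 1 to 20 were even, so a pair can count as 2.

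Counts were tested here with edgeR 4.0.16 in R 4.3.3 (TMM scaling and a quasi-likelihood test on 16723 genes that passed filterByExpr at its minimum count, 10, with adjusted p by Benjamini-Hochberg). CPM are counts per TMM-scaled library of 1000000. The study's methods name DESeq2, which was an alternative (1.42.0), as was limma-voom (limma 3.58.1). The others were other scalings, filters and thresholds, a replicate block, age and Y-linked reads as covariates, subsets of libraries and halved counts. The scripts were tested on simulated data. Libraries of a group differed by more than counting noise, and any 2 of them differed in the age of the mouse or in Y-linked reads. No 2 libraries of a group thus come from the same mouse, and each was taken as 1 mouse. Same-numbered libraries come from different mice, and their deviations correlated at -0.22, 0.19 and -0.52, so the numbers were not taken as pairs.

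The members and lists were chosen with earlier results of these data known. Genes are named with values where they are D-type cyclins, Cdk4, Cdk6, Myc, Mycn, Mki67 or Top2a, among the 2 most abundant per kilobase or the 4 lowest p in a phase group, or the 2 lowest p of another pathway list; others are marked as looked up after the values were seen. Bub1b is also named outside that rule. Exons of 10 members overlap those of other genes, so their counts can be too low.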

Additional observations from a re-analysis of the deposited data

How the results depend on the processing

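The number of members called was 0 by edgeR, 3 with DESeq2, 2 with Y-linked reads as a covariate, 1 in the 4 libraries without Y-linked reads and 0 with each library left out in turn. Over all genes, 42 were called, and 67 with no filter on low counts, 286 with DESeq2, 424 with the Y-linked covariate, 113 in the libraries without Y-linked reads, 27 in those of 12-week-old mice and 6 to 63 with a library left out. The cause was not tested. With the replicate block, 0 members and 41 genes were called, and it changed no call of a named gene. Members whose groups do not overlap numbered 6 of 60 (17.1% of all genes), and 17 without Y-linked reads (44.9% of all genes) and 27 in 12-week-old mice (35.8%). With a library left out they numbered from 8 without caBmpr1a replicate 1 (24.9% of all genes) to 26 without control replicate 2 (26.5%).

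The G1 median of -0.03 became 0.10 with library size only and ran from -0.20 to 0.075 with a library left out; the G2 and mitosis median stayed below 0, from -0.63 to -0.14. With library size only, the ratio of summed levels went from 1.05 to 1.15 for G1 and from 0.888 to 0.973 for licensing. Signs reversed for Cdk4 (0.11 without Y-linked reads), Mcm7 (0.014) and Pcna (0.030) with library size only, Mki67 (from -0.73 to 0.21 with a library left out, positive without control replicate 3), Pcna (from -0.24 to 0.0063, positive without caBmpr1a replicate 2) and Myc. Myc was at 0.14 with library size only, 0.020 with the size factors of DESeq2, 0.0999 with upper quartiles, 0.061 with a minimum count of 30, 0.076 in 12-week-old mice and 0.032 with halved counts, and from -0.61 to 0.32 with a library left out, turning positive without control replicate 3 (0.075) or caBmpr1a replicate 1 (0.16) or 2 (0.32). Halved counts gave 0 members and 42 genes called, 6 members without overlap and a G2 and mitosis median of -0.34.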
